A study of Mus musculus with 5 samples.

Results

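Hepatic expression of the cholesterol synthesis pathway and its sterol sensors was compared among 5 inbred mouse strains. The genes were chosen by name: 28 genes of cholesterol synthesis and sterol regulation were looked up by gene symbol in the annotation of the array, and where a gene had several probe sets the one with the highest mean intensity was used. Of the 28, 26 had a probe set under their own symbol, carried by 55 probe sets in all, and 25 were measured above the detection floor, each on all 5 arrays. Acat2 and Soat2 had no probe set under their own symbol and were not analysed here, and Npc1l1 read 5.18 to 6.18, under the floor on every array. The whole table held 45101 probe sets for 18194 genes, of which 11909 were detected on at least 1 array. The floor, an intensity of 8.41, was the 95th percentile of 86 probe sets for chemosensory receptors, which liver is not known to use.

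The strains were RIIIS/J, NZW/LacJ, C57BL/6J, FVB/NJ and BALB/CByJ. Each was represented by 1 Affymetrix Mouse430_2 array hybridised with liver RNA pooled from 3 males. All mice were 10 weeks old and untreated, and the series served to follow up a mapped expression locus. A single array stood for each strain, so the values below are descriptions without a replicate check, and statistical tests were not possible. Precision is limited by the number of arrays, and strain cannot be told apart from the pool, the collection or the array it came with. The values are intensities on a linear scale. A deviation is the log2 intensity of a gene in one strain less its average over the other 4, and fold values are ratios of intensities.

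Cholesterol is built from acetyl-CoA in the endoplasmic reticulum and the liver is a main site of its synthesis. The mevalonate arm makes isoprenoid units, and the sterol arm joins them to squalene, closes the ring to lanosterol and trims it to cholesterol. The transcription factor SREBP-2, encoded by Srebf2, switches the enzyme genes on when membrane sterol is low. It is escorted to the Golgi by Scap and cut there by the proteases of Mbtps1 and Mbtps2, and when sterol is plentiful the Insig proteins hold Scap back in the endoplasmic reticulum. Insig1 is itself an SREBP target, whereas Insig2 has a liver transcript that insulin represses.

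Promoter windows are shown for members on which the results turn. Hmgcs1 and Idi1 are enzyme genes whose strain order differed. On their chosen probe sets Insig1 and Insig2 deviated with opposite signs in 4 of the 5 strains. The windows run from 250 bases before to 50 bases after a RefSeq start on build GRCm38.p6, 5′ to 3′ on the strand of the gene. Capitals mark the letters TCACNCCAC (a sterol regulatory element), CCAAT (bound by NF-Y), GGGCGG (bound by Sp1) and CACGTG (an E-box), each on either strand.
Hmgcs1, chr13:119690101-119690400, plus strand: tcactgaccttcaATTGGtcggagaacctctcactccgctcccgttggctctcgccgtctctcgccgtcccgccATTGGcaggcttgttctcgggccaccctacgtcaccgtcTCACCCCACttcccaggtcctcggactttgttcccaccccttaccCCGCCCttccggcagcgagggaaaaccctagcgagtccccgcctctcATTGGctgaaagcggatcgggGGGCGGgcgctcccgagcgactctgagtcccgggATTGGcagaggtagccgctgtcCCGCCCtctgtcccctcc
Idi1, chr13:8885356-8885655, plus strand: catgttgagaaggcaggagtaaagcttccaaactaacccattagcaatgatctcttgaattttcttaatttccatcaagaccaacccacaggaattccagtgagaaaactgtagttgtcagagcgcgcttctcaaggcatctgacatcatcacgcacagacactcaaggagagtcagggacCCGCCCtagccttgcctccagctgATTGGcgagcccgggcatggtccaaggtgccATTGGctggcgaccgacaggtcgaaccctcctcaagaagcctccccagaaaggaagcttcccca
Insig1, chr5:28071162-28071461, plus strand: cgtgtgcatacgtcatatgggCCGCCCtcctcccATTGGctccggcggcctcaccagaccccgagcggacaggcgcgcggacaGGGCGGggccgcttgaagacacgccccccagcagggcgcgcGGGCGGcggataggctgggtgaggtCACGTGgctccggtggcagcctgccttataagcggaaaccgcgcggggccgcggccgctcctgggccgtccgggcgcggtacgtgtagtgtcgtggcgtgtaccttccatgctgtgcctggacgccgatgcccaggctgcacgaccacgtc
Insig2, upstream start, chr1:121332540-121332839, minus strand: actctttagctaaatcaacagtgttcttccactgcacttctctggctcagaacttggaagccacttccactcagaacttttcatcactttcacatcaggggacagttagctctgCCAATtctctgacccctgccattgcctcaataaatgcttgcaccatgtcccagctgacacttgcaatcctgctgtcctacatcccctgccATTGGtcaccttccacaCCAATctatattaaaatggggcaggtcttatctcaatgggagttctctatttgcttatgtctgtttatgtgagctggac
Insig2, further start, chr1:121327975-121328274, minus strand: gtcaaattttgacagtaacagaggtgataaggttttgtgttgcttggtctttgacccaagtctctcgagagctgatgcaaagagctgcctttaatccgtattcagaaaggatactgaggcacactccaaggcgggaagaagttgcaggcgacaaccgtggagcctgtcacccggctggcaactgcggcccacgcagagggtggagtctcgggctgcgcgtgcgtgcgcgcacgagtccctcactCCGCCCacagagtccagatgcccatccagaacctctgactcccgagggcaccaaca
Of the 25 measured members, 20 had at least 1 window, with 26 windows in all. The sterol regulatory element letters lay in 1 of the 26 windows, that of Hmgcs1, 137 bases before the start, against 1.24% of all 32851 windows in the table. CCAAT lay in 17 of the 26 windows (37.4% of all windows), GGGCGG in 21 (35.7%) and CACGTG in 5 (7.15%). The Hmgcs1 window held CCAAT 4 times and GGGCGG 3 times. The upstream Insig2 window held CCAAT 3 times and GGGCGG 0 times, whereas the further start shown held GGGCGG once, 6 bases before the start. The array does not say which Insig2 start was in use.

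Over the 25 measured members, the median deviation was 0.34 in RIIIS/J, 0.14 in C57BL/6J, 0.03 in BALB/CByJ, -0.25 in FVB/NJ and -0.34 in NZW/LacJ, while over all detected genes it lay between -0.02 and 0.00 in each strain. With the mean of all probe sets of a gene in place of the chosen one, it was 0.16 in RIIIS/J and 0.17 in C57BL/6J, so the upper strains changed places. Without the NZW/LacJ array it was 0.20 in RIIIS/J and 0.07 in C57BL/6J, and in C57BL/6J it was 0.23 without the BALB/CByJ array and 0.27 without the RIIIS/J array. In FVB/NJ it was -0.12 without the C57BL/6J array and -0.15 without the RIIIS/J array. Single members departed from the order of the medians, among them Hmgcs1, Scap, Npc1, Mbtps1 and both Insig genes. RIIIS/J had the highest value of 14 of the 25 members, against 17.5% of all detected genes, and C57BL/6J that of 6, against 19.6%. BALB/CByJ was highest in 3 members (21.5%), FVB/NJ in 1 (23.5%) and NZW/LacJ in 1 (16.9%). NZW/LacJ had the lowest value of 11, against 16.8%, and FVB/NJ the lowest of 8, against 26.3%. BALB/CByJ was lowest in 3 (12.3%), RIIIS/J in 3 (22.6%) and C57BL/6J in 0 (11.5%). Without the RIIIS/J array C57BL/6J was highest in 14 members and BALB/CByJ in 6, and without the NZW/LacJ array FVB/NJ was lowest in 14. These counts divide the members among fewer strains, so the shares of all detected genes over 5 arrays do not apply to them. The members lay above the mean of the other strains in 19 cases in C57BL/6J (50.2% of all detected genes), 17 in RIIIS/J (43.4%), 14 in BALB/CByJ (50.4%), 5 in FVB/NJ (45.1%) and 2 in NZW/LacJ (45.7%). The differences were small: 0 of 25 members were at least 2-fold above or below the nearest other strain, against 12% of all detected genes. At 1.5-fold from the nearest strain there were 8 members, against 25.8%. From the highest to the lowest strain, 8 members spanned at least 2-fold, against 30.5%, and 19 spanned at least 1.5-fold, against 56.4%. At 2-fold these shares of the members were near or below the background, and at 1.5-fold they were above it, at 76% of the members for the full span and 32% for the distance to the nearest strain.

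**Figure D1:**
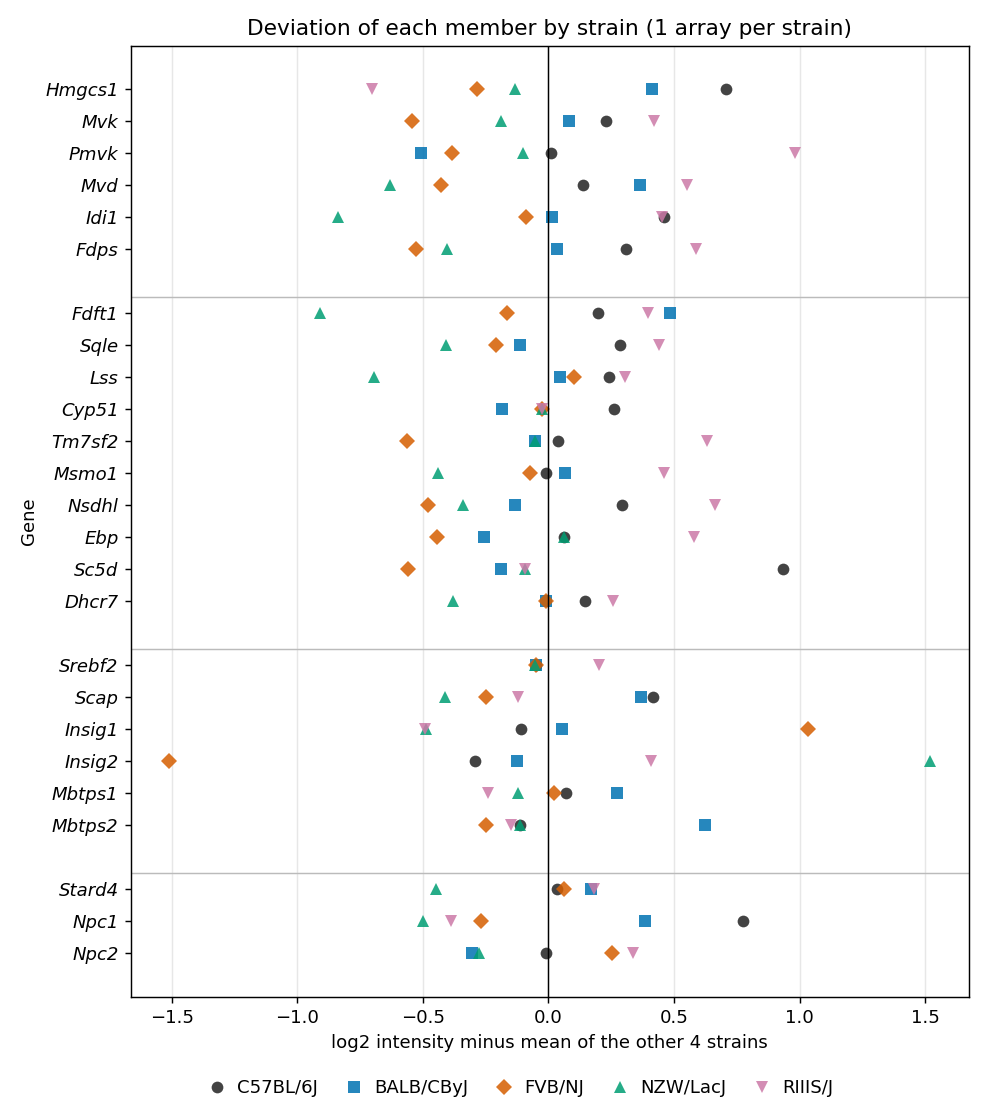
Deviation on the log2 scale (x axis) of each of the 25 measured members (y axis, grouped as mevalonate arm, sterol arm, sterol sensing and transport), 1 symbol per strain and 1 array per strain. RIIIS/J lies to the right for 13 of the 16 enzymes and NZW/LacJ to the left for 15, while Insig2 runs from -1.51 in FVB/NJ to 1.52 in NZW/LacJ.

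**Figure D2:**
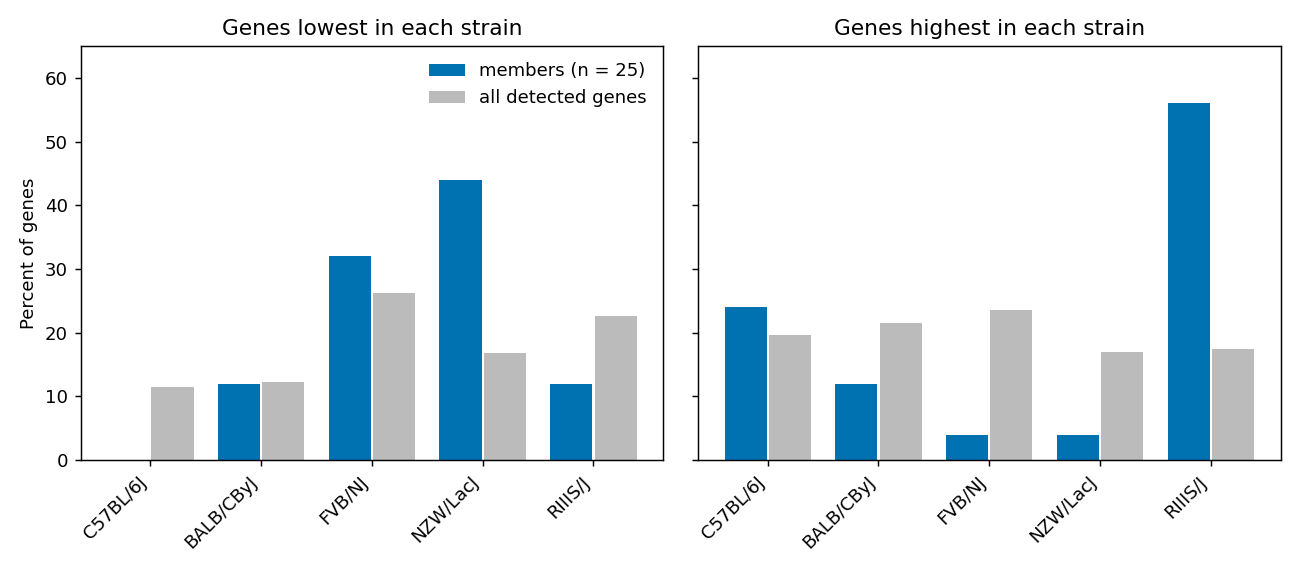
Percent of genes (y axis) that had their lowest (left) or highest (right) value in each strain, for the 25 measured members (blue) and for all 11909 detected genes (grey), with ties counted in none. RIIIS/J holds the highest value of 56% of the members and NZW/LacJ the lowest value of 44%.

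The 6 measured enzymes of the mevalonate arm had medians of 0.50 in RIIIS/J, 0.27 in C57BL/6J, 0.06 in BALB/CByJ, -0.29 in NZW/LacJ and -0.41 in FVB/NJ. Idi1, which isomerises isopentenyl diphosphate, read 6399 in C57BL/6J, 4993 in BALB/CByJ, 4718 in FVB/NJ, 3113 in NZW/LacJ and 6362 in RIIIS/J. NZW/LacJ was low and stood 1.52-fold below the nearest strain, with C57BL/6J and RIIIS/J level at the top. Fdps, the farnesyl diphosphate synthase gene, read 5292, 4544, 3332, 3569.7 and 6176 in the same order of strains. FVB/NJ and NZW/LacJ were both below the other strains, and RIIIS/J was 1.85-fold above FVB/NJ. Mvd, which decarboxylates mevalonate diphosphate, read 140.5, 159, 103, 91.8 and 177, with the same pair of strains at the bottom. Mvk, the mevalonate kinase gene, read 162, 149, 106, 129 and 180.1, with RIIIS/J highest and FVB/NJ lowest.

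In RIIIS/J, Pmvk had the highest and Hmgcs1 the lowest deviation of this arm. Pmvk, the phosphomevalonate kinase gene, read 748 in C57BL/6J, 561 in BALB/CByJ, 601 in FVB/NJ, 703 in NZW/LacJ and 1280.5 in RIIIS/J. RIIIS/J was 1.71-fold above the nearest strain, and the other 4 strains lay close together. Hmgcs1, the cytosolic HMG-CoA synthase gene at the entry of the pathway, read 18416 in C57BL/6J, 15646 in BALB/CByJ, 10623 in FVB/NJ, 11563 in NZW/LacJ and 8420.0 in RIIIS/J. On the chosen probe sets 11 of the other 15 enzymes had their highest value in RIIIS/J. Hmgcs1 was the one enzyme lowest there by those probe sets, with a deviation of -0.70. Of its 4 further probe sets, 3 were also lowest in RIIIS/J, with highest over lowest ratios of 2.40, 2.40 and 2.81, and the fourth was dim at 23.4 to 41.9 and lowest in FVB/NJ. The window of Hmgcs1 shown above is the one that carries the sterol regulatory element letters.

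The 10 enzymes from squalene to cholesterol had medians of 0.42 in RIIIS/J, 0.22 in C57BL/6J, -0.08 in BALB/CByJ, -0.19 in FVB/NJ and -0.36 in NZW/LacJ. Fdft1, the squalene synthase gene, read 4723 in C57BL/6J, 5537 in BALB/CByJ, 3866 in FVB/NJ, 2557 in NZW/LacJ and 5281 in RIIIS/J. NZW/LacJ was 1.51-fold below the nearest strain, and a further probe set gave the same order at the bottom, with 1672 in NZW/LacJ against 2141 to 3297. Lss, which closes squalene epoxide to lanosterol, read 693, 621, 641, 412 and 717 in that order of strains, again 1.51-fold lower in NZW/LacJ than in the nearest strain. Sqle, the squalene epoxidase gene, read 723, 580.3, 550.3, 493 and 788. Its lowest value was also in NZW/LacJ and its highest in RIIIS/J.

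The later steps of the sterol arm split between these patterns. Msmo1, which removes methyl groups from sterols, read 7992, 8329.8, 7721, 6293 and 10367 in the strain order used above, and Dhcr7, a sterol reductase gene at the end of the pathway, read 1580.5, 1451, 1451, 1182 and 1682. Both were lowest in NZW/LacJ and highest in RIIIS/J. Nsdhl, a sterol dehydrogenase gene, read 2580.3, 2038, 1681, 1818 and 3171, and Tm7sf2, a sterol reductase gene, read 4457, 4239, 3196, 4239 and 6199.9. Ebp, the sterol isomerase gene, read 9645, 8087, 7293, 9645 and 12865. These last 3 genes were lowest in FVB/NJ, and Ebp was the one enzyme above the mean of the other strains in NZW/LacJ. Cyp51, the lanosterol demethylase gene, was the flattest enzyme on the chosen probe sets, at 1573 to 2014. It had equal values of 1717 in FVB/NJ, NZW/LacJ and RIIIS/J. A further Cyp51 probe set read 904 in C57BL/6J against 609 to 652, lowest in RIIIS/J, and another read 23.6 to 25.1. Sc5d, a sterol desaturase gene, read 12212 in C57BL/6J, 6549.6 in BALB/CByJ, 5334 in FVB/NJ and 6909 in both NZW/LacJ and RIIIS/J. C57BL/6J stood 1.77-fold above the nearest strain on this probe set, a position that its further probe sets did not share.

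Further probe sets gave the one repeat of a measurement in this design. Over all genes, the deviations of the chosen and a further detected probe set differed by a median of 0.23, and by 0.20 for the 22 further probe sets of the 14 members that had any. Of the 11 members lowest in NZW/LacJ, 7 had further probe sets, and 7 of those 9 probe sets were lowest in NZW/LacJ too. Of the 14 members highest in RIIIS/J, 7 had further probe sets, and 4 of those 9 were highest in RIIIS/J too. The difference between these shares was not tested. Over all 47 detected probe sets of the members, 38 were below the mean of the other strains in NZW/LacJ (52.9% of all 18141 detected probe sets were) and 35 in FVB/NJ (54.9%). Above it were 36 in C57BL/6J (50.2%), 28 in BALB/CByJ (54.1%) and 28 in RIIIS/J (46.2%). By this count C57BL/6J stood highest, as it did over the chosen probe sets, at 19 members against 17 in RIIIS/J. By the median deviation of the same 47 probe sets RIIIS/J stood highest, at 0.20 against 0.15 in C57BL/6J.

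Probe sets of Sc5d, Lss and Mvk gave different strain orders. The further Sc5d probe sets read 2046 in C57BL/6J, 2073 in BALB/CByJ, 2046 in FVB/NJ, 991 in NZW/LacJ and 2663 in RIIIS/J on the brighter one, and 117, 119, 103, 53.4 and 255 on the dimmer. Both put NZW/LacJ lowest and RIIIS/J highest, as did the chosen probe sets of Mvd, Sqle, Lss, Msmo1 and Dhcr7, and neither put C57BL/6J above the other strains. A further Lss probe set read 176, 286, 268, 98.3 and 95.1, low in NZW/LacJ but also in RIIIS/J. A further Mvk probe set read 114, 117, 67.1, 163 and 71.0, highest in NZW/LacJ. For Idi1 a further probe set read 3204, 2677, 2400.3, 1824 and 2132, so NZW/LacJ was lowest on both but RIIIS/J was near the top on the chosen probe set alone.

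**Figure D3:**
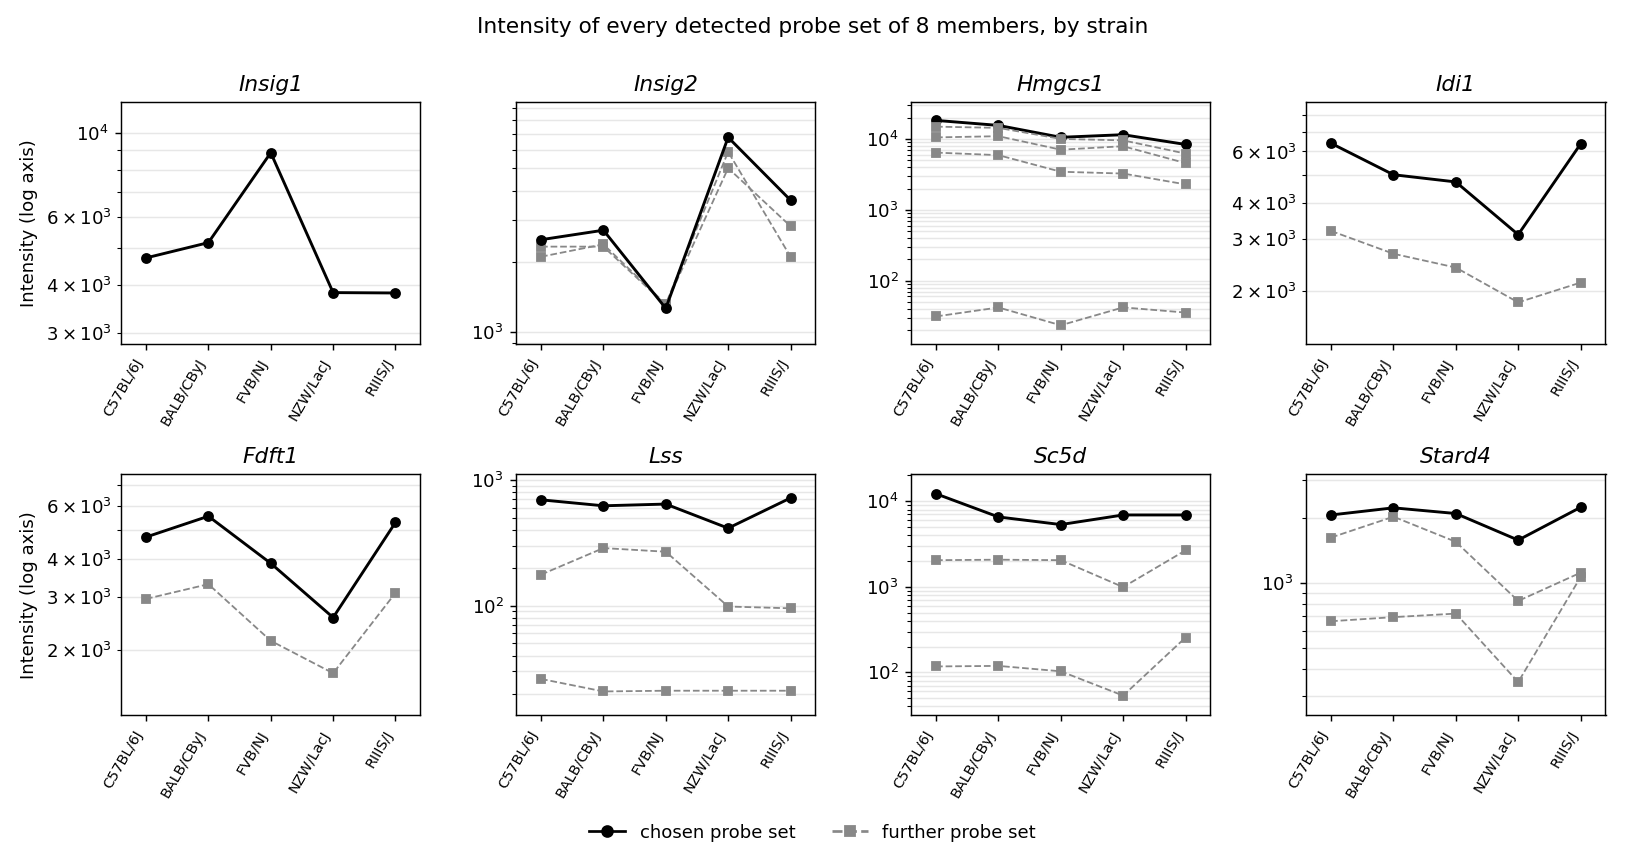
Intensity on a log axis (y) by strain (x) of every detected probe set of 8 members, with the chosen probe set in black and further ones in grey, and lines joining the values of 1 probe set. The 3 Insig2 probe sets all peak in NZW/LacJ and are lowest in FVB/NJ, whereas the 3 Sc5d probe sets differ in shape.

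Among the sterol sensors the Insig genes deviated most. On the chosen probe sets their signs were opposite in 4 of the 5 strains, and both were negative in C57BL/6J. Insig2 read 2479 in C57BL/6J, 2721 in BALB/CByJ, 1263 in FVB/NJ, 6776 in NZW/LacJ and 3656 in RIIIS/J. NZW/LacJ was 1.85-fold above the nearest strain, FVB/NJ was 1.96-fold below the nearest, and the 5.36-fold span was the widest of the 25 members. Both further probe sets of Insig2 had the same extremes, at 5878 and 5009 in NZW/LacJ against 1317 and 1308 in FVB/NJ. In RIIIS/J the first of these read 2097, below the 2368 in BALB/CByJ. Its deviation there was -0.25, the same sign as that of Insig1. Insig1 read 4702, 5156, 8856, 3817 and 3808 in the same order of strains. Here FVB/NJ was high, 1.72-fold above the nearest strain, and NZW/LacJ and RIIIS/J were equally low. The deviation of Insig1 minus that of Insig2 was 2.54 in FVB/NJ, 0.18 in C57BL/6J, 0.18 in BALB/CByJ, -0.90 in RIIIS/J and -2.01 in NZW/LacJ. Insig1 had 1 probe set, so its values had no second reading.

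The Insig values are set here beside the enzyme medians. FVB/NJ combined the highest Insig1 and the lowest Insig2 with an enzyme median of -0.33. NZW/LacJ combined the highest Insig2 with an enzyme median of -0.36. RIIIS/J, with the highest enzyme median of 0.45, had nearly the same Insig1 value as NZW/LacJ, at 3808 against 3817. Its Insig2 value was second highest on the chosen probe set, but not on the further probe set that read 2097 there. Insig1 is an SREBP target like the enzymes. Among the 16 enzymes, 0 had their highest value in FVB/NJ (23.5% of all detected genes did). Whether the Insig and enzyme values are linked was not tested.

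The other regulators varied less. Srebf2 read 113 in C57BL/6J, BALB/CByJ, FVB/NJ and NZW/LacJ and 130.1 in RIIIS/J. A further Srebf2 probe set read 95.8 in C57BL/6J, FVB/NJ and RIIIS/J, 122 in BALB/CByJ and 49.5 in NZW/LacJ, so a lower value in NZW/LacJ appeared on that probe set and not clearly on the chosen one. Scap, the escort of SREBP, read 2279, 2218, 1576, 1441 and 1690.4 in the same order of strains. It was higher in C57BL/6J and BALB/CByJ than in the other strains, and so did not share the high position of the enzymes in RIIIS/J. Mbtps1, which makes the first cut in SREBP, read 468 to 622, and Mbtps2, which makes the second, read 216 in BALB/CByJ against 133 to 144. As a list, the 6 sensing and processing genes had medians from -0.15 in FVB/NJ to 0.16 in BALB/CByJ, a narrower span than that of the enzyme medians. The list includes both Insig genes, and its single deviations ran wider, from -1.51 to 1.52 against -0.91 to 0.98 in the enzymes.

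Among transport genes, Npc1, whose product moves cholesterol out of lysosomes, read 1169.8 in C57BL/6J, 944 in BALB/CByJ, 656 in FVB/NJ, 577 in NZW/LacJ and 614 in RIIIS/J. C57BL/6J and BALB/CByJ were above the other strains, with a span of 2.03-fold, the same split as for Scap. Npc2, its soluble partner, read 1645, 1399, 1905, 1418 and 1996, with BALB/CByJ and NZW/LacJ level at the bottom. Stard4, a sterol carrier gene under SREBP control, read 2060.2, 2222, 2092, 1576 and 2234, lowest in NZW/LacJ. Its further probe sets were also lowest in NZW/LacJ, at 348 against 665 to 1063 and at 825 against 1114 to 2023.

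Compared by pairs of strains, the median difference of the members was widest between RIIIS/J and NZW/LacJ. The median log2 difference over the 25 members was -0.49 for NZW/LacJ minus RIIIS/J, and 18 members were higher in RIIIS/J against 5 in NZW/LacJ (49.6% of all detected genes were higher in NZW/LacJ). The counts were more one-sided for C57BL/6J over NZW/LacJ, at 22 against 1 (49.7% of all detected genes were higher in C57BL/6J). They were also more one-sided for C57BL/6J over FVB/NJ, at 21 against 3 (51.4% were higher in C57BL/6J), and for RIIIS/J over FVB/NJ, at 20 against 4 (46.7% were higher in FVB/NJ). At 1.5-fold or more, 9 members were higher in RIIIS/J (8.18% of all detected genes) and 1, Insig2, was higher in NZW/LacJ (9.98%). In C57BL/6J 8 members exceeded NZW/LacJ by 1.5-fold (9.89%), and 7 exceeded FVB/NJ (7.66%). RIIIS/J exceeded FVB/NJ by 1.5-fold in 8 members (11.2%), and BALB/CByJ exceeded NZW/LacJ in 7 (13.3%). C57BL/6J and BALB/CByJ were 1.5-fold apart in 1 member each way, Sc5d (5% of all detected genes) and Mbtps2 (7.83%). These comparisons share arrays, so they are not independent of each other. At 2-fold no pair had more than 2 members in a given direction, such as Idi1 and Fdft1 in RIIIS/J over NZW/LacJ (3.12%).

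Other genes of the pathway were taken from fixed lists. Of 10 further SREBP-2 targets, 6 were measured, and their medians ran from -0.26 in NZW/LacJ to 0.17 in C57BL/6J, with 0.07 in RIIIS/J. Aacs, which activates acetoacetate for sterol synthesis, read 379.6 in C57BL/6J, 845 in BALB/CByJ, 902 in FVB/NJ, 77.9 in NZW/LacJ and 269 in RIIIS/J. NZW/LacJ was 3.45-fold below the nearest strain (0.722% of all detected genes were at least 2-fold below the nearest strain there). Hsd17b7, a sterol ketoreductase gene, was likewise lowest there, at 433 against 916 to 1336. Acss2, an acetyl-CoA synthetase gene, went the other way, with its highest value of 8725 in NZW/LacJ against 2777 to 6905. Tmem97, which binds Npc1, read 945 in NZW/LacJ against 1019 to 1534, and Rdh11, a retinal reductase gene, read 2611 in RIIIS/J against 933 to 1678.

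The fatty acid synthesis genes driven by SREBP-1c were set beside the enzymes. The 8 detected of 9 listed genes had medians of 0.64 in C57BL/6J, 0.23 in FVB/NJ, 0.18 in RIIIS/J, -0.08 in BALB/CByJ and -0.89 in NZW/LacJ. NZW/LacJ had the lowest value of 7 of the 8 (16.8% of all detected genes), and C57BL/6J the highest of 5 (19.6%). FVB/NJ was above the mean of the other strains in 8 of 8 of these genes and in 1 of the 16 cholesterol enzymes (45.1% of all detected genes). RIIIS/J had the highest value of 1 of the 8 and of 11 of the 16 enzymes (17.5%). NZW/LacJ stood low in both lists. The difference between the lists was not tested. Srebf1, the parent gene of SREBP-1c, read 2102 to 2929.

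**Figure D4:**
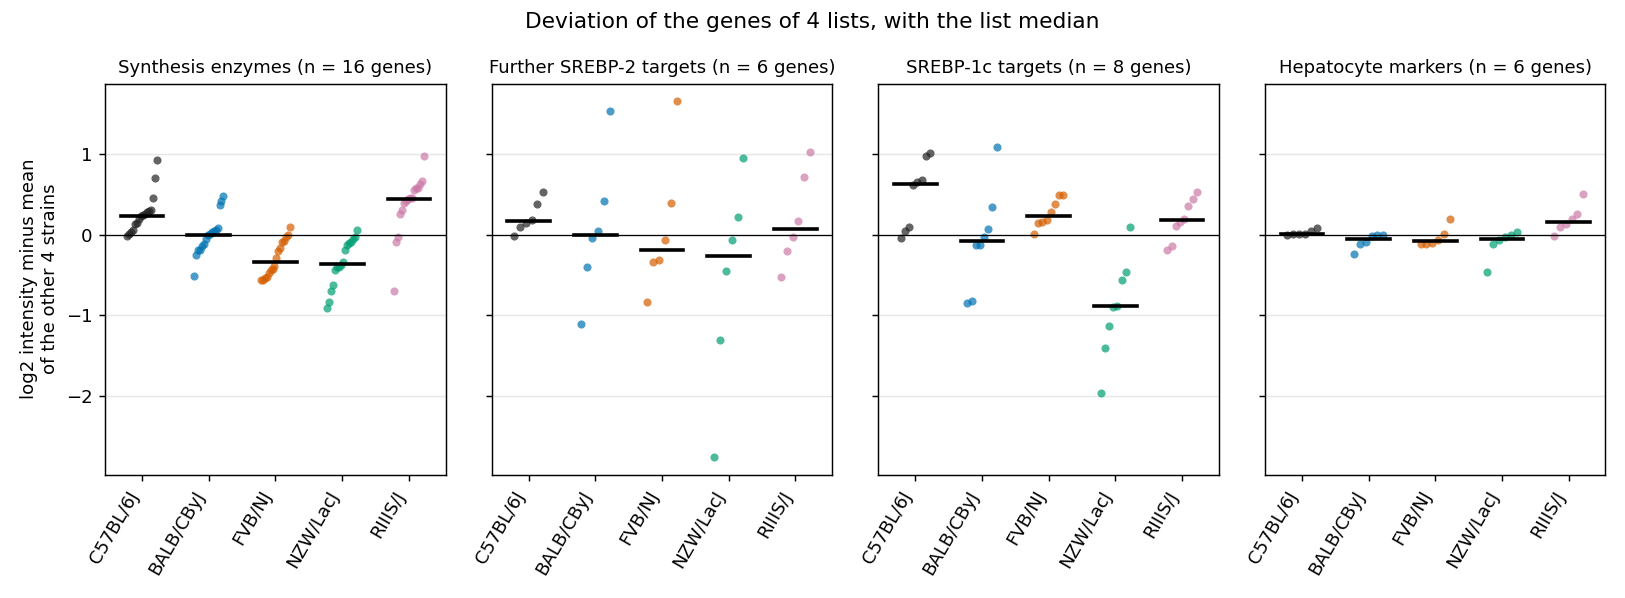
Deviation on the log2 scale (y) of each gene (points) by strain (x) for the 16 synthesis enzymes, 6 further SREBP-2 targets, 8 SREBP-1c targets and 6 hepatocyte markers, with the list median as a bar. NZW/LacJ has medians of -0.36 and -0.89 in the cholesterol and fatty acid lists, and hepatocyte markers have medians from -0.08 to 0.16.

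A list of sterol export genes, the LXR receptor and its targets, and genes that act on the turnover of sterol regulators was measured in 11 of 13 cases. Its median was lowest in RIIIS/J, at -0.23, and nearest to 0 in BALB/CByJ, at 0.00. Abcg5 and Abcg8, which together pump sterol into bile, were highest in BALB/CByJ, at 2308 against 692 to 1525 and at 994 against 177 to 575. In both genes NZW/LacJ and RIIIS/J were the lowest strains. Nr1h3, the gene of the sterol receptor LXR alpha, read 285 in C57BL/6J, 402 in BALB/CByJ, 289 in FVB/NJ, 577 in NZW/LacJ and 714 in RIIIS/J. Here the same pair of strains was highest. Mylip, an LXR target that marks lipoprotein receptors for degradation, read 277 in FVB/NJ against 71.6 to 116, and Abcg1, a cholesterol exporter of macrophages, read 343 there against 65.8 to 108. These 2 of the 11 genes were at least 2-fold above the nearest strain in FVB/NJ, where 5.79% of all detected genes were.

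The arrays also differed in RNA of other tissues and in rhythmic genes. The 6 measured hepatocyte markers summed to 222451 in FVB/NJ, 226220.0 to 237886 in BALB/CByJ, NZW/LacJ and C57BL/6J, and 250970.0 in RIIIS/J. RIIIS/J, the strain with the highest enzyme median, had the highest value of 5 of these 6 markers (17.5% of all detected genes). Its deviations ran from -0.01 for Apoa1 to 0.50 for Tat, with a median of 0.16. B cell and blood markers summed to 29667 in FVB/NJ against 369.5 to 993, with 7 of 7 at least 2-fold above the nearest strain (5.79% of all detected genes), and exocrine pancreas markers to 20164 in RIIIS/J against 679.8 to 1267, with 3 of 3 so (0.966%). Kupffer cell markers summed to 1656 to 3532, stellate cell markers to 491 to 2293, endothelial markers to 612 to 905 and cholangiocyte markers to 41.3 to 64.4, and of 4 enterocyte markers 1, Fabp2, was above the floor. Cd79a (5.35 to 5.68) was under the floor outside FVB/NJ, and Cpa1 (5.14 to 5.59) and Cel (6.24 to 6.68) were under it outside RIIIS/J. Acute phase genes were highest in NZW/LacJ in 7 of 7 cases, summing to 121232 against 51619.8 to 69066. Clock genes that peak near dawn summed to 630.0 to 735 in C57BL/6J, BALB/CByJ and FVB/NJ, 1716 in NZW/LacJ and 2139.7 in RIIIS/J. The 8 clock genes that peak near dusk summed to 12452 in C57BL/6J, 16147 in BALB/CByJ, 10510.2 in FVB/NJ, 3713 in NZW/LacJ and 1305 in RIIIS/J. RIIIS/J had the lowest value of 8 of these 8 genes and NZW/LacJ was below the mean of the other strains in 7. The part of these differences in the enzyme values was not tested, and in tissue RNA fewer cells of a type and less RNA per cell cannot be told apart. The FVB/NJ and RIIIS/J arrays were also both left out, a setting chosen after seeing the data. NZW/LacJ then had the lowest value of 17 of the 25 members and C57BL/6J the highest of 15. The shares of all detected genes given here are for 5 arrays and cannot be set beside these counts.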

How the data were processed

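Liver RNA of 5 inbred strains was measured on 5 Affymetrix arrays, 1 per strain, from pools of 3 males. The deposited values are probe set intensities on a linear scale made by the authors. The submitters' processing notes name GCOS and GCRMA, whose versions and settings, like a genome build, are not given in the sources used here. GCRMA fits probes over all arrays together, and 29.1% of probe sets, and the chosen probe sets of 7 of the 25 measured members, held a value that recurred exactly on another array.

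Intensities were converted to log2. Of 45101 probe sets 34958 had 1 gene in the platform annotation, 932 had several and 9211 had none listed. Probe sets with several genes or none listed were not used. Each gene took its probe set with the highest mean, and values under the floor (8.41, the 95th percentile of 86 receptor probe sets) were raised to it. Deviations, counts of lowest and highest strains, and calls at 2-fold from the nearest strain were set beside the same shares over all 11909 detected genes. Intensities of different probe sets were not compared with each other. Motifs were searched on both strands of RefSeq windows (GRCm38.p6).

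The members, the lists and the alternatives were chosen with earlier results of these data known. All members were named, and other genes only from the fixed lists. The alternatives were another floor, no floor, the mean of probe sets, removal of cross-matching probe sets, quantile and loess normalization (span 0.3), the median of the other strains, other fold thresholds and arrays left out. Of the steps, only the call at 2-fold from the nearest strain was tested on simulated data. Python 3.11.15, numpy 2.4.6, pandas 2.3.3, statsmodels 0.14.6 and matplotlib 3.10.9 were used.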

Additional observations from a re-analysis of the deposited data

How the results depend on the processing

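No paired analysis was possible because a strain was 1 array, and no replicate could be left out. The 58 medians recomputed under other settings had no replicate spread to be set against. They ranged from -0.38 to -0.27 in NZW/LacJ, from -0.34 to -0.12 in FVB/NJ, from 0.16 to 0.36 in RIIIS/J and from 0.07 to 0.27 in C57BL/6J, while BALB/CByJ ranged from -0.07 to 0.13 and kept its sign in 8 of 12. Of the counts of lowest and highest strains, 90 of 106 stayed within 1.5 times. The other floor, at 27.4, lay below every value of the measured members (91.8 or more), so it could not change these counts or the medians. Members highest in BALB/CByJ, 3 in the report, numbered 6 with the mean of all probe sets, 5 without cross-matching probe sets, 6 without the C57BL/6J array, 6 without the RIIIS/J array and 7 without both FVB/NJ and RIIIS/J, a setting chosen after seeing the data. Those highest in NZW/LacJ numbered 2 with the mean of all probe sets. Without RIIIS/J, 14 members were highest in C57BL/6J and 2 in FVB/NJ, and without both FVB/NJ and RIIIS/J 15 were highest in C57BL/6J and 17 lowest in NZW/LacJ. Members lowest in C57BL/6J numbered 1 without FVB/NJ, 1 without NZW/LacJ and 1 without both FVB/NJ and RIIIS/J, and those lowest in BALB/CByJ 5 without FVB/NJ and 5 without both. Without NZW/LacJ, 14 members were lowest in FVB/NJ. Members apart from the nearest strain numbered 8 at 1.5-fold, and 1 with the mean of all probe sets, without C57BL/6J, without RIIIS/J, and without both FVB/NJ and RIIIS/J. In these settings fewer strains or other probe sets decide the nearest neighbour. Counts with arrays left out divide the members among fewer strains, so the shares of all detected genes over 5 arrays do not apply to them.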

Other observations

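Sterol carriers and esterifying enzymes showed no shared order, with list medians between -0.09 and 0.04 over 6 measured genes. Stard5, a sterol carrier gene, read 1741 in C57BL/6J, 1562 in BALB/CByJ, 1669 in FVB/NJ, 831 in NZW/LacJ and 820.2 in RIIIS/J, with the same pair of strains low as for Abcg5 and Abcg8. Lipa, the lysosomal lipase that frees cholesterol from its esters, read 3094 in RIIIS/J against 1613 to 1744, and Stard3, a late endosome sterol carrier gene, read 78.1 there against 134 to 163. Scp2, a sterol carrier protein gene, read 26837 to 38899, and Lcat, which esterifies cholesterol in plasma, read 5207 to 6585.

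Genes that respond to feeding and insulin varied between strains. Igfbp1, which insulin represses, read 788 in C57BL/6J against 114 to 260.3. G6pc, the glucose-6-phosphatase gene, read 5504 in RIIIS/J against 1243 to 2036, and Pck1, a gluconeogenic enzyme gene, read 26964 in BALB/CByJ against 8196 to 16061.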
